A study of Mus musculus with 2 samples.

Results

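Genes that mark cholinergic, monoaminergic and visceral motor neurons were followed in the central nervous system of the mouse embryo at day 11.5. The set held 9 genes of the 43346 Ensembl genes measured: Chat, Th, Ddc, Dbh, Tph2, Slc6a3, Slc6a4, Fev and Phox2a. They were found by matching gene identifiers to these symbols, by a rule that uses no measured value, and each symbol matched 1 row of the gene tables. The choice of the 9 genes, and of the gene lists set beside them below, was however made with earlier results of these data known. The tissue was the central nervous system of C57BL/6J embryos, and each library was made from pooled male and female littermates. The libraries were replicate 2 and replicate 1 of this 1 group, and the labels name no allele, treatment or dissection boundary. Polyadenylated RNA longer than 200 nucleotides had been sequenced as read pairs that keep the strand. With 1 group there was no contrast between conditions, so no p-value is given, and an SD over n = 2 measures only the spread between these libraries, which came from separate biosamples per the labels.

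Neurons of these classes are defined by the transmitter they make, load into vesicles and take back up. Chat makes acetylcholine. Th, Ddc and Dbh act in sequence, turning tyrosine into DOPA, DOPA into dopamine and dopamine into noradrenaline. Tph2 starts serotonin synthesis in neurons, and Ddc completes it. Slc6a3 and Slc6a4 return dopamine and serotonin to the cell. Fev, also called Pet1, is an ETS transcription factor of serotonergic neurons. Phox2a is a homeodomain factor of noradrenergic neurons, autonomic ganglia and cranial motor neurons. At mid-gestation such neurons are newly formed in the brain stem and spinal cord, and Th and Dbh are also made in sympathetic ganglia outside the central nervous system.

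Replicate 2 held 111687579 expected counts in all and replicate 1 held 126358805, of which Ensembl genes took 96.7% and 95.3%. Mitochondrial genes took 6.78% of the TPM of replicate 2 and 1.35% of that of replicate 1. ERCC spike-ins took 4.28% in replicate 2 and 6.74% in replicate 1, so the libraries also differed in composition. The 6 general markers of the tissue (Sox2, Nes, Pax6, Tubb3, Dcx, Elavl3) all reached 1 TPM in both libraries, with summed levels of 1010 TPM in replicate 2 and 1380 TPM in replicate 1. Nes was at least 2-fold lower in replicate 2, at 72.17 TPM against 233.05 TPM in replicate 1. The other 5 were under 2-fold apart, and the list had a median log2 ratio of -0.64, replicate 2 over replicate 1. Position markers also set the libraries apart. All 7 caudal Hox genes listed were at least 2-fold higher in replicate 2, where they summed to 147 TPM against 5.05 TPM in replicate 1. Of the 4 rostral genes, Six3, En1 and Otx2 were at least 2-fold lower in replicate 2, and the list summed to 83.2 TPM in replicate 2 and 148 TPM in replicate 1. Of 10 genes of neural crest, Schwann precursors and sensory ganglia, 5 were at least 2-fold higher in replicate 2, among them Erbb3, Sox10 and Foxd3, with sums of 130 TPM in replicate 2 and 73.1 TPM in replicate 1. The part of these differences in the results below was not tested. As background, 11.4% of all genes with 100 summed counts were at least 2-fold apart.

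The 9 genes spanned a wide range of low levels. Ddc was the highest, at 12.2 ± 2.93 TPM (SD, n = 2), above 61.0% of protein-coding genes. By mean, Slc6a3 was the lowest, at 0.145 ± 0.0212 TPM (SD, n = 2), above 27.1% of them, while Chat, at 0.06 TPM, was the lowest in replicate 1. In replicate 2, 5 of the 9 genes reached 1 TPM, as did 63.4% of all protein-coding genes, and in replicate 1, 2 did, as did 61.6%. The 2 genes at 1 TPM or more in both were Th and Ddc. The same held for 60.8% of all protein-coding genes and 32.9% of all Ensembl genes. Every one of the 9 genes had at least 10 expected counts in each library. By mean TPM the order was Ddc, Th, Dbh, Slc6a4, Phox2a, Chat, Tph2, Fev and Slc6a3. Ddc stood above Th, Th above Dbh and Fev above Slc6a3 with no overlap of the values of the 2 libraries, whereas each neighbouring pair from Dbh down to Fev overlapped. In a bulk tissue, fewer cells of a type and less RNA per cell cannot be told apart.

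**Figure D1:**
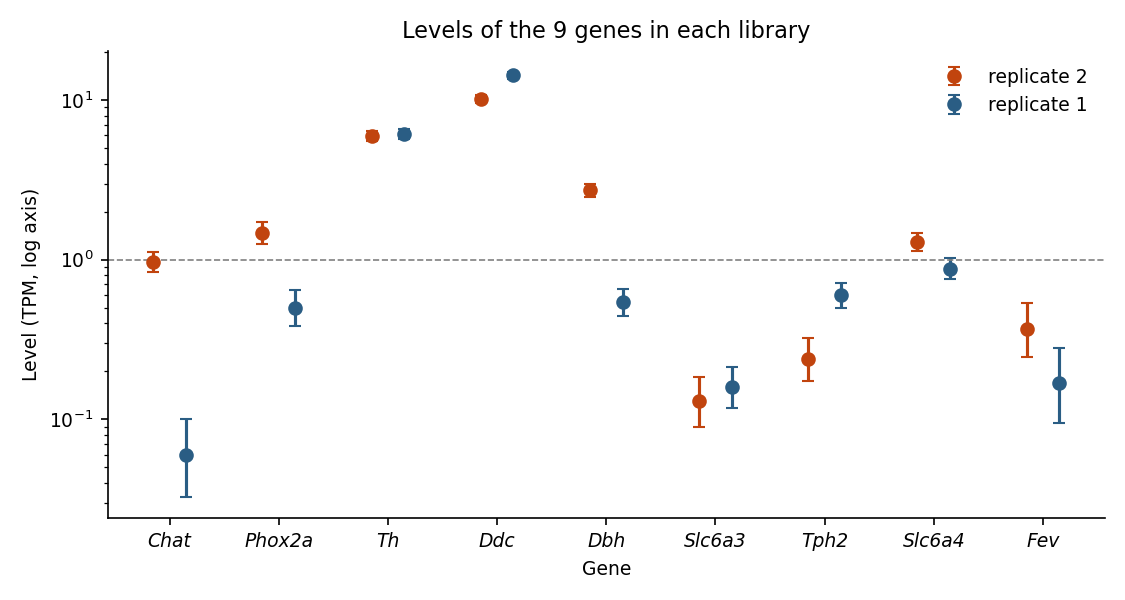
Level of each of the 9 genes in TPM on a log axis, replicate 2 left of replicate 1, with exact 95% Poisson intervals of the expected count carried over to TPM. The dashed line marks 1 TPM. Th and Ddc lie above the line in both libraries, and the points for Chat are the farthest apart, at 0.97 TPM in replicate 2 and 0.06 TPM in replicate 1.

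The libraries were then compared gene by gene as replicate 2 over replicate 1, on expected counts scaled by TMM (trimmed mean of M values). A gene was called different at a ratio of 2-fold or more and a total of 100 counts or more over both libraries. Of the 9 genes, 7 had 100 counts, and 4 of these differed: Chat, Dbh and Phox2a were higher in replicate 2, and Tph2 was lower. Among all 16511 genes with 100 counts, 11.4% differed, 6.35% higher and 5.05% lower in replicate 2. Among the 6300 genes with between 100 and 2720 counts, the highest sum of any of the 9, the share was 20.5%. The intervals below are exact 95% binomial intervals of the ratio of 2 libraries and cover counting error only.

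**Figure D2:**
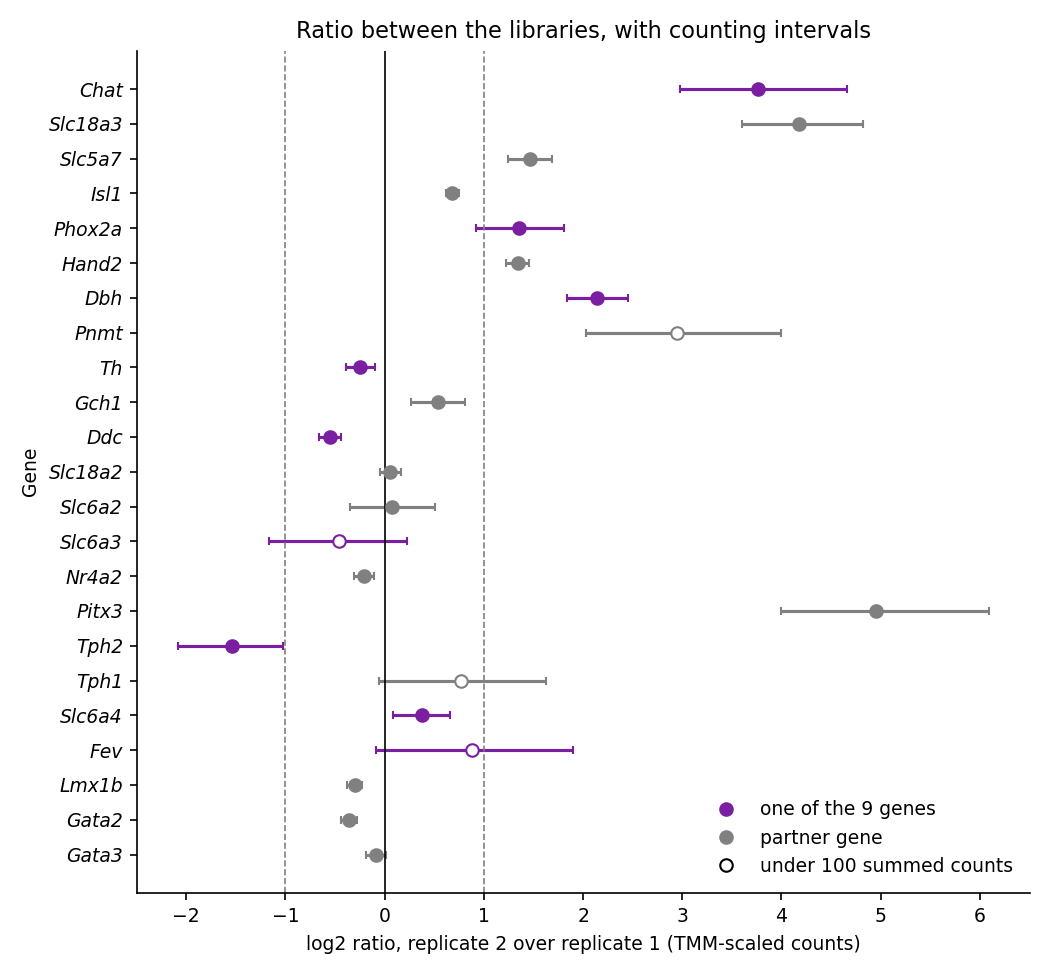
Log2 ratio of replicate 2 over replicate 1 (TMM-scaled counts, horizontal axis) for the 9 genes in purple and partner genes in grey, with exact 95% binomial intervals as bars. Dashed lines mark 2-fold, and open points have under 100 summed counts. Chat, Slc18a3 and Pitx3 lie farthest to the right, and Tph2 is the one gene whose point and whole interval lie left of the 2-fold line.

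Chat, choline acetyltransferase, had 186 expected counts in replicate 2 and 14 in replicate 1, or 0.97 and 0.06 TPM. The count was 13.6-fold higher in replicate 2 (95% interval 7.89 to 25.3). The value of replicate 1 rests on few reads, with an exact Poisson interval of 7.7 to 23.5 counts, and on the log2(TPM + 1) scale, which understates low genes, the difference was 0.89, under 2-fold. Chat lies on mouse chromosome 14, chr14:32408203-32465989 on the minus strand (mm10). The gene for the vesicular acetylcholine transporter, Slc18a3, lies on the same strand within its first intron, at chr14:32462438-32464850. Slc18a3 moved with Chat: it had 442 counts in replicate 2 against 25 in replicate 1, an 18.1-fold difference (12.1 to 28.2). The level of Slc18a3 was 2.71 TPM in replicate 2 and 0.13 TPM in replicate 1. Per length, Slc18a3 exceeded Chat 2.79 times in replicate 2 and 2.17 times in replicate 1. Thus the 2 genes of the cholinergic locus differed in the same direction, each by more than 10 times. The proportion in replicate 1 rests on 14 counts of Chat and 25 of Slc18a3, so how closely it was kept cannot be told.

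The rest of the cholinergic list varied less. Slc5a7, the high-affinity choline transporter, had 604 counts in replicate 2 against 224 in replicate 1, a 2.76-fold difference (2.36 to 3.23). Colq, which encodes the collagen tail of acetylcholinesterase, had 93 counts in replicate 2 and 17 in replicate 1 and was the lowest gene of the list by mean TPM, with Chat below it in replicate 1. Among the other 10 cholinergic genes, all had 100 summed counts, 3 were higher in replicate 2 (Slc18a3, Slc5a7 and Colq) and 0 were lower. The nicotinic receptor subunit Chrnb2 was the highest of the list, at 13.66 TPM in replicate 2 and 13.7 TPM in replicate 1. Together the list had a median log2 ratio of 0.65, and the median over all genes with 100 counts was -0.01. With Chat itself, 4 of the 11 cholinergic genes were thus higher in replicate 2, against 6.35% of all genes with 100 counts. None of the 5 listed receptor subunits reached 2-fold.

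Phox2a had 153 counts in replicate 2 and 61 in replicate 1, or 1.47 and 0.5 TPM, a 2.56-fold difference (1.89 to 3.51) that came to 0.72 on the log2(TPM + 1) scale. It lies on chromosome 7, chr7:101818313-101822726 (mm10, plus strand). Among the 11 genes of the visceral and branchial motor neuron list, all with 100 counts, 5 were higher in replicate 2 and 2 lower. The higher ones were Phox2a, the T-box genes Tbx2, Tbx3 and Tbx20, and Hoxb1, the lowest gene of the list. The lower ones were the ventral progenitor genes Nkx2-2 and Nkx2-9. Among all genes with 100 counts, 6.35% were higher in replicate 2 and 5.05% lower. Nkx2-9 had 76 counts in replicate 2 and 341 in replicate 1. Isl1, a LIM-homeodomain factor of motor and sensory neurons, was the highest of the list, at 36.23 TPM in replicate 2 and 26.76 TPM in replicate 1, under 2-fold apart. The T-box genes are also expressed in limb, heart and other mesenchyme.

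Of the catecholamine enzymes, Th had the ratio closest to 1 of the 7 genes with 100 counts under TMM and DESeq2 size factors. It had 715 counts in replicate 2 and 866 in replicate 1, or 5.95 and 6.13 TPM. The ratio was 0.844 (0.763 to 0.933). The gene lies on chromosome 7, chr7:142892752-142931128 (mm10, minus strand). All of its TPM in both libraries was assigned to the transcript Th-201, and the other 5 annotated transcripts were listed at 0. In the deposited mm9 transcript table, whose first and second value no label ties to a replicate, this transcript took 74.8% and 99.2% of the Th RPKM, and a nonsense-mediated decay model took 25.2% of the first value. The 250 bases before its start in RefSeq (GRCm38.p6), at chr7:142899996-142900245 on the minus strand, are shown because they hold the cAMP response element, a palindrome bound by CREB-type factors, here in capitals.
Th: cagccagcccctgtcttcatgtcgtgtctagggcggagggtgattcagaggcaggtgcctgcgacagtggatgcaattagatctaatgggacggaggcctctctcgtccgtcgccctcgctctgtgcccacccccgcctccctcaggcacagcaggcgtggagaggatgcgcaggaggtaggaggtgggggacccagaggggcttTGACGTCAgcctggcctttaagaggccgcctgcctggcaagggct
The letters searched were TGACGTCA, which reads the same on both strands. The match begins 45 bases before the start. Of 32851 mouse promoter windows of this length, 1.55% held these letters, and none of the other promoters of the 9 genes did.

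Dbh, the enzyme that makes noradrenaline, behaved differently from Th. It had 471 counts in replicate 2 and 109 in replicate 1, or 2.72 and 0.54 TPM. The count was 4.42-fold higher in replicate 2 (3.58 to 5.49). The Th level was 2.19 times that of Dbh in replicate 2 and 11.4 times in replicate 1. Thus the enzymes of one pathway did not keep their proportion between the libraries. Dbh lies on chromosome 2, chr2:27165233-27183200 (mm10, plus strand). Phox2 proteins are known to bind homeodomain sites near the start of this gene, so 30-base stretches before its RefSeq start are shown with the core letters ATTA, or TAAT read on the other strand, in capitals. The distal stretch is chr2:27165340-27165369 and the proximal one chr2:27165427-27165456, both on the plus strand.
Dbh distal: tccatgtgtcATTAgtgccaATTAggggag
Dbh proximal: caccagacaaatgtgATTAggtgcagcctg
The 250 bases before the start held 3 such cores, beginning 157, 147 and 65 bases before the start. Of all promoter windows, 54.9% held at least 1 core and 17.3% held at least 3. GENCODE M21 places the start of Dbh farther upstream, at position 27165233, so positions here are those of RefSeq.

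Genes that sympathetic neurons and chromaffin cells share with Dbh were split between the libraries. Hand2, a factor of sympathetic neurons that limb and heart also express, had 2055 counts in replicate 2 against 828 in replicate 1, a 2.54-fold difference (2.34 to 2.75). Pnmt, which turns noradrenaline into adrenaline, had 83 counts in replicate 2 and 11 in replicate 1. Pnmt fell short of 100 summed counts, and its ratio was 7.71 (4.09 to 16.0). Slc18a1, the vesicular monoamine transporter typical of endocrine cells, had 104 counts in replicate 2 and 26 in replicate 1. The secretory granule gene Chgb and the peptide gene Cartpt, by contrast, were lower in replicate 2. Chgb was the highest of this marker list by mean TPM, though not in replicate 2, at 9.29 TPM in replicate 2 and 26.59 TPM in replicate 1. The 6 sympathoadrenal markers, of which 4 reached 1 TPM in both libraries and none was at 0, summed to 42.5 TPM in replicate 2 and 68.5 TPM in replicate 1. The part of cells outside the neural tube in the Dbh and Phox2a differences was not tested.

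The noradrenergic and autonomic list held 13 genes with 100 counts. Dbh, Phox2a and Hand2 were higher in replicate 2, and 2 genes were lower, among them the zinc-finger factor Insm1. The shares over all genes with 100 counts were 6.35% higher and 5.05% lower. Slc6a2, the noradrenaline transporter, was the lowest, at 0.22 TPM in replicate 2 and 0.19 TPM in replicate 1. Its counts of 97 in replicate 2 and 94 in replicate 1 gave a ratio of 1.05 (0.786 to 1.42). Gata2 and Gata3, zinc-finger factors of sympathetic and serotonergic neurons, were under 2-fold apart. Gata2 stood at 10.27 TPM in replicate 2 and 11.37 TPM in replicate 1, and Gata3 at 7.75 TPM in replicate 2 and 6.89 TPM in replicate 1. With a median log2 ratio of -0.06, the list as a whole lay close to the median over all genes.

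Ddc, aromatic L-amino acid decarboxylase, serves both dopamine and serotonin synthesis and was the most abundant of the 9 genes. It had 1088 counts in replicate 2 and 1632 in replicate 1, or 10.17 and 14.31 TPM, a ratio of 0.681 (0.63 to 0.736). Per length, Ddc exceeded Th 1.71 times in replicate 2 and 2.33 times in replicate 1. The gene lies on chromosome 11, chr11:11814101-11898144 (mm10, minus strand). In rat and human, Ddc is known to use separate first exons in neurons and in non-neuronal tissues, ahead of a shared coding sequence. The mouse annotation likewise holds an upstream and a downstream first exon, and the 250 bases before each RefSeq start are shown because the deposited tables differ on which of them these libraries used. Capitals mark the homeodomain core ATTA or TAAT. The downstream window is chr11:11890409-11890658 and the upstream one chr11:11898145-11898394, both on the minus strand.
Ddc downstream: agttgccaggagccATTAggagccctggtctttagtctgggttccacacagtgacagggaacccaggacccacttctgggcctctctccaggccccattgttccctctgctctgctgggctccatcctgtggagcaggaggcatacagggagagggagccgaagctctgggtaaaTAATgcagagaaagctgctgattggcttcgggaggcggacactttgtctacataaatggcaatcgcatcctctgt
Ddc upstream: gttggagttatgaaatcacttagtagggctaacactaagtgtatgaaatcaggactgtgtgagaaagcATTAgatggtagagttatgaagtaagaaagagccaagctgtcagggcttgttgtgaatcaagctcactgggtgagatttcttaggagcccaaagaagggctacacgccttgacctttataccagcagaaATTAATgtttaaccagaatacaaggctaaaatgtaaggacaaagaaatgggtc
The downstream window held 2 cores and 56.0% G or C. The upstream window held 3 cores, of which 2 overlap, and 40.8% G or C. At least 2 cores stood in 30.8% of all promoter windows. Neither window held a match to the cAMP response element, to the GATA letters AGATAA, to the E-box CAGCTG or to the ETS letters CGGAAG, each searched on both strands.

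Spliced reads were found over the first intron that starts at the downstream exon. In the deposited mm9 junction list, 246 reads joined the downstream first exon to exon 2 across chr11:11780654-11790340, 141 in the first and 105 in the second of the values given. The annotated junction from the upstream first exon of Ddc-201, chr11:11780654-11798010, had 0 reads. For that junction, this allows a share of up to 1.22% of the 246. The mm10 transcript tables likewise placed 77.5% of the Ddc TPM of replicate 2 and 92.6% of that of replicate 1 on the 4 models with the downstream first exon. The 2 models with the upstream first exon took 2.26% in replicate 2 and 1.68% in replicate 1. Most of this fell on Ddc-210, at 2.26% in replicate 2 and 1.54% in replicate 1. The first exon of Ddc-210 has its 3′ end at 11898012 (mm10), against 11898008 for Ddc-201, and the mm9 models lack Ddc-210. The deposited mm9 transcript table gave the opposite picture. It put 92.8% and 65.2% of the Ddc RPKM, as first and second value, on the model Ddc-201, which carries the upstream first exon. In that table the full-length model with the downstream first exon, Ddc-202, was listed at 0 in both values. Which first exon of Ddc carried more of its level therefore turned round between the mm10 and mm9 transcript tables of the same libraries.

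**Figure D3:**
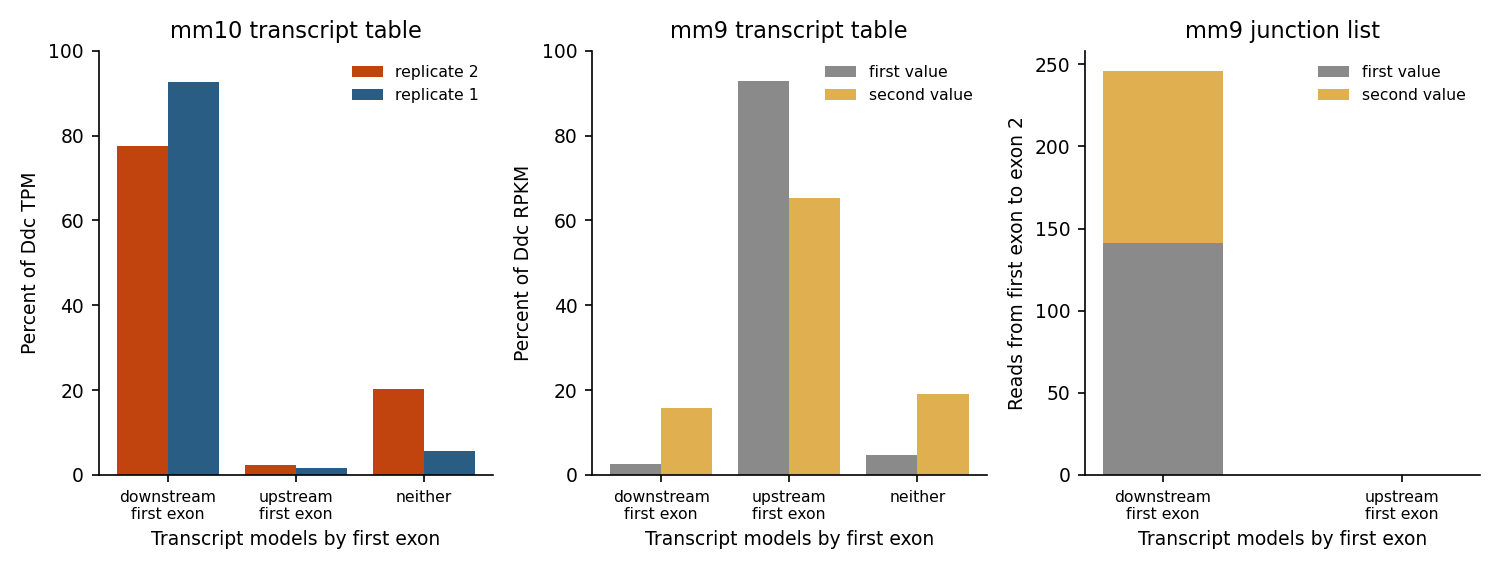
Share of Ddc assigned to transcript models by their first exon in the mm10 transcript tables (left, percent of TPM, replicate 2 left of replicate 1) and in the mm9 transcript table (middle, percent of RPKM, first and second value), and reads joining each first exon to exon 2 (right). The mm9 table favours the upstream exon, at 92.8% and 65.2%, while all 246 reads of the annotated first-exon junctions shown start in the downstream exon.

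The levels assigned to single Ddc transcripts also differed between the libraries in the mm10 tables. The coding model Ddc-202 stood at 6.54 TPM in replicate 2 and 8.43 TPM in replicate 1. The short coding model Ddc-209 was listed at 0 in replicate 2, with deposited bounds up to 0.392 TPM, and at 4.2 TPM in replicate 1, with deposited bounds of 3.11 to 5.36. The noncoding model Ddc-206 stood at 1.23 TPM in replicate 2 and 0.17 TPM in replicate 1. The level of these bounds is not stated, and they come from the authors' quantifier. The mm9 transcript table of the same libraries listed Ddc-209 at 0 in both values, and Ddc-206 at 0.0269 and 0.109 RPKM. The Ddc-209 difference thus stood in the mm10 tables alone. All 10 annotated Ddc transcripts had a value above 0 in at least 1 library.

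Slc6a3, the dopamine transporter, had 32 counts in replicate 2 and 45 in replicate 1, or 0.13 and 0.16 TPM. Its ratio of 0.727 (0.447 to 1.17) included 1, and the gene stayed under 100 summed counts. It lies on chromosome 13, chr13:73536747-73578672 (mm10, plus strand). Th exceeded it 45.8 times per length in replicate 2 and 38.3 times in replicate 1. Slc18a2, the vesicular transporter that all monoamine neurons share, stood at 5.97 TPM in replicate 2 and 5.01 TPM in replicate 1, 45.9 and 31.3 times the level of Slc6a3. The vesicular transporter thus stood near the level of Th, and the uptake transporter far below both.

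In the midbrain dopaminergic list, 13 of 14 genes had 100 counts, 1 was higher in replicate 2 and 3 lower. Nr4a2, also called Nurr1, which these neurons need to express Th, stood at 7.06 TPM in replicate 2 and 7.77 TPM in replicate 1. Lmx1b, a LIM-homeodomain factor of dopaminergic and serotonergic neurons, had 2573 counts in replicate 2 and 3240 in replicate 1. Its TPM lay farther apart, at 9.09 in replicate 2 and 25.91 in replicate 1. The higher gene was Pitx3, with 272 counts in replicate 2 and 9 in replicate 1, a 30.9-fold difference (16.0 to 68.3). Pitx3 is known from midbrain dopaminergic neurons, the lens and skeletal muscle. The lower genes were the midbrain and hindbrain border genes En1 and En2 and the forebrain and midbrain gene Otx2, the highest of the list at 48.31 TPM in replicate 2 and 86.83 TPM in replicate 1. Pitx3 and the other midbrain genes that differed thus lay on opposite sides. Over all genes with 100 counts, 6.35% were higher in replicate 2 and 5.05% lower.

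Tph2, the neuronal tryptophan hydroxylase, was the one gene of the 9 that differed in the other direction. It had 42 counts in replicate 2 and 125 in replicate 1, or 0.24 and 0.6 TPM. The ratio was 0.343 (0.236 to 0.491), so replicate 1 was 2.91-fold higher (2.04 to 4.24). Scaled to the ERCC spike-ins, which put the median log2 ratio of all genes at 0.84, Tph2 stood at -0.69, and on the log2(TPM + 1) scale at -0.37, both under 2-fold. Tph2 lies on chromosome 10, chr10:115078641-115185022 (mm10, minus strand), and all of its TPM fell on its coding transcript. Tph1, the form of the pineal gland, gut and mast cells, was under 100 summed counts, at 0.29 TPM in replicate 2 and 0.22 TPM in replicate 1. The Tph2 level was 0.828 times that of Tph1 in replicate 2 and 2.73 times in replicate 1.

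The serotonin transporter did not share the shift of Tph2. Slc6a4 had 237 counts in replicate 2 and 187 in replicate 1, or 1.29 and 0.88 TPM, a ratio of 1.3 (1.06 to 1.58), and it passed 2-fold under ERCC scaling alone, at a log2 ratio of 1.22. The intervals of the Slc6a4 and Tph2 ratios did not overlap. Slc6a4 exceeded Tph2 5.38 times per length in replicate 2 and 1.47 times in replicate 1. It lies on chromosome 11, chr11:76998603-77032340 (mm10, plus strand). Its main coding transcript carried 83.1% of its TPM in replicate 2 and 90.9% in replicate 1, and a retained-intron transcript carried 7.69% in replicate 2 and 9.09% in replicate 1. The mm9 transcript table put 20.2% and 23.7% of the Slc6a4 RPKM on that retained-intron model, as first and second value.

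Fev was close to the limit of detection in both libraries, with 27 counts in replicate 2 and 15 in replicate 1, or 0.37 and 0.17 TPM. The ratio of 1.84 (0.944 to 3.72) included 1. It lies on chromosome 1, chr1:74881509-74885419 (mm10, minus strand). Its promoter window, of 68.0% G or C, held 1 GATA match, letters that 9.99% of all windows held. The only other GATA match among the 9 genes was in the Tph2 window. Gata2 exceeded Fev 27.8 times per length in replicate 2 and 66.9 times in replicate 1.

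Of the 15 genes in the serotonergic list, 12 had 100 counts, 0 were higher in replicate 2 and 4 were lower. Among the lower ones were Tph2, Nkx2-2 and Insm1. Nkx2-2 and Insm1 are progenitor and early neuron genes that other neural lineages also use. The serotonin receptor gene Htr1a was the lowest, at 0.08 TPM in replicate 2 and 0.03 TPM in replicate 1. The list median was -0.39 on the log2 scale. For all genes with 100 counts, the shares were 6.35% higher and 5.05% lower in replicate 2. Like Tph2, 3 of the 4 rostral markers were lower in replicate 2, as given above. Hindbrain markers went the other way, with 3 of 4 higher in replicate 2 and 0 lower. That list summed to 19.6 TPM in replicate 2 and 5.38 TPM in replicate 1. The part of either list in the Tph2 difference was not tested.

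The vesicle, uptake and breakdown genes of monoamines were also compared. In the list of 11 monoamine enzymes and transporters, 9 genes had 100 counts, and only Dbh and Slc18a1 differed, both higher in replicate 2. Of all genes with 100 counts, 11.4% differed and 6.35% were higher. All 6 genes that make and recycle tetrahydrobiopterin, the cofactor of Th, Tph1 and Tph2, were under 2-fold apart, with a median log2 ratio of 0.02. Qdpr, which recycles the cofactor, was the highest at 56.96 TPM in replicate 2 and 77.61 TPM in replicate 1. Gch1, the first enzyme of its synthesis, was the lowest at 1.43 TPM in replicate 2 and 0.86 TPM in replicate 1.

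**Figure D4:**
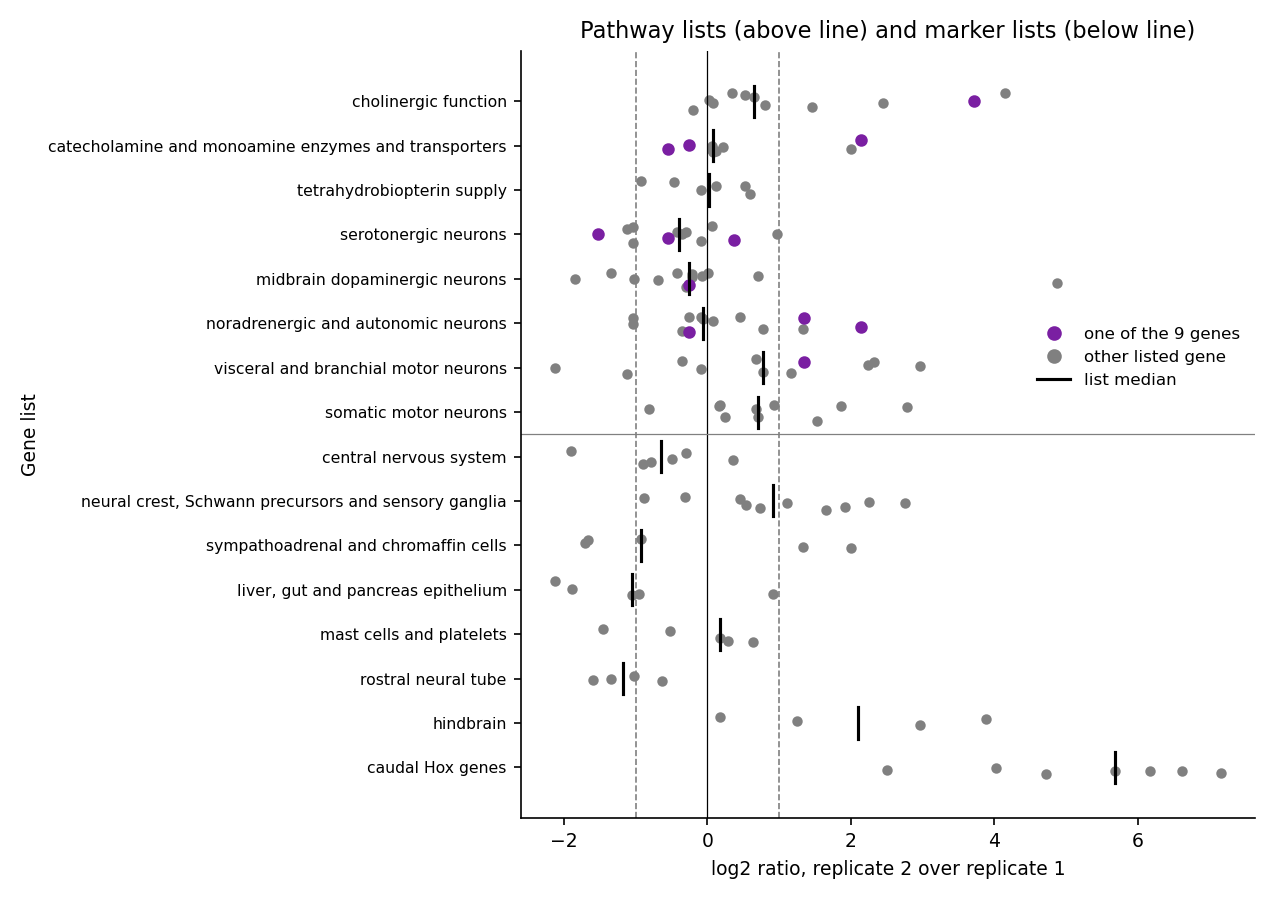
Log2 ratio of replicate 2 over replicate 1 (horizontal axis) for the listed genes with at least 100 summed counts, 1 point a gene and 1 row a list, with the list median as a bar. The 9 genes are purple and dashed lines mark 2-fold. The caudal Hox genes lie farthest right, with a median of 5.68, and the cofactor list lies within the dashed lines.

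Each of the 7 genes with 100 counts was matched to the listed gene with the nearest log2 ratio, among 107 candidates. Chat, at 3.72, lay nearest to the hindbrain gene Hoxa2, at 3.89. Dbh, at 2.14, lay nearest to Tbx2, at 2.24, and Phox2a, at 1.35, nearest to Hand2, at 1.34. Tph2, at -1.53, lay nearest to the rostral gene Six3, at -1.6. Th lay nearest to Tfap2b, Ddc to Itga2b and Slc6a4 to Dcx. Each likeness rests on 1 ratio of 2 libraries, and some gene is nearest to any ratio. Other listed genes also lay within the counting intervals, such as Slc18a3, at 4.15, for Chat and the platelet gene Pf4, at -1.45, for Tph2. The nearest gene therefore does not tell a region or cell type.

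Spliced reads of the mm9 junction list were placed on the introns of the main transcript of each gene. Of 93 introns, 89 were crossed by at least 1 read, and the 9 genes had 6235 such reads in all. Ddc had 3293 reads over 14 introns and Th had 1796 over 12, with every intron covered. Dbh had 426 reads over 11 introns, 68 in the first and 358 in the second mm9 value. Tph2 had 126 reads over 10 introns, with 104 in the first and 22 in the second value, so its split ran the other way from that of Dbh.

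Chat had 125 reads over its 15 introns, 12 in the first and 113 in the second value. In the first value these reads fell on 2 introns, with 7 over the third and 5 over the ninth. In the second value they fell on 13 introns. The first intron, which houses Slc18a3, had 0 reads, and so did the sixth. Slc6a4 had 328 reads over 13 introns and Phox2a had 73 over 2, with every intron covered. Slc6a3 had 63 reads over 14 introns, of which the ninth had 0, and Fev had 5 reads, all over its second intron. Spliced reads were thus found for all 9 genes, including those under 1 TPM.

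**Figure D5:**
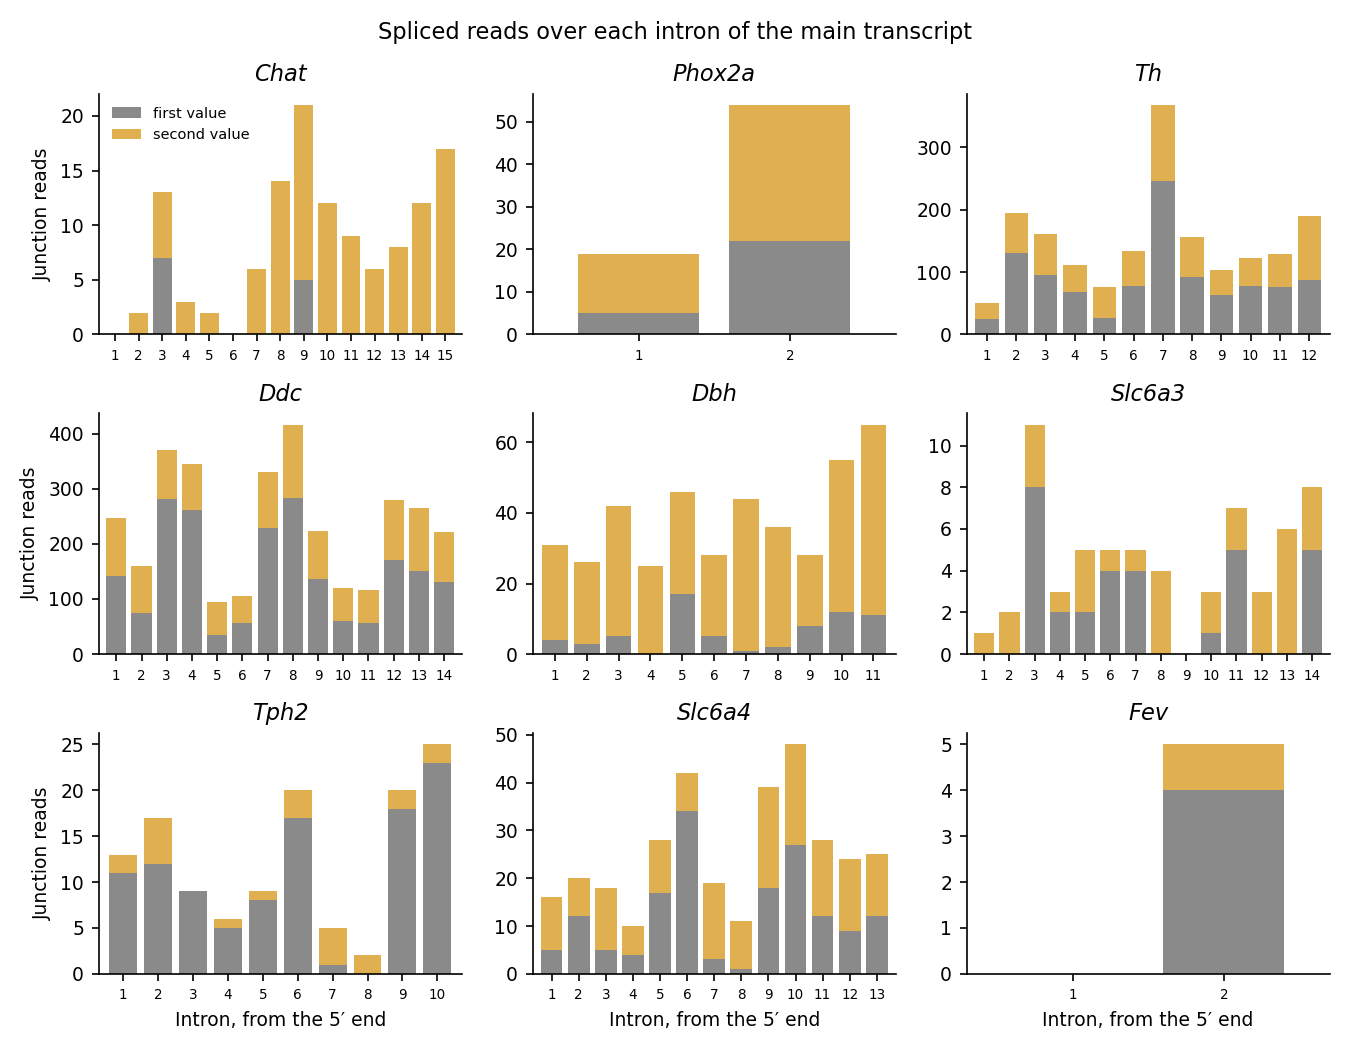
Reads joining the exons on both sides of each intron (vertical axis) of the main transcript of each gene, introns counted from the 5′ end, stacked by the first and second mm9 value, which no label ties to a replicate. In Chat the first value appears over 2 introns, while in Th and Ddc both values cover every intron.

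A separate processing of the same libraries gave the same order of genes. The mean of the mm9 RPKM values ranked the 9 genes from Ddc to Slc6a3 exactly as the mean mm10 TPM did. Chat had mm9 values of 0.00561 and 0.112 RPKM, the largest ratio among the 9. The larger mm9 value exceeded the smaller 3.89 times for Dbh, 2.92 times for Phox2a and 2.56 times for Tph2. For Fev it was 2.17 times, and for Th, Ddc, Slc6a3 and Slc6a4 it lay between 1.17 and 1.24 times. These values are from the same reads and are no independent measurement. Slc18a3 was not analysed on mm9.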

How the data were processed

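The authors deposited, for each library, gene and transcript tables on mm10 with annotation M4, with, per the file headers, expected counts, FPKM and TPM. The authors also deposited mm9 tables for both libraries together: RPKM values per gene and transcript and junction read counts, in which no label ties a value to a replicate. For the aligner and the quantifier no name is given in the sources used here. Expected counts were rounded to whole numbers, and 26248 rows with numeric identifiers (3 counts in replicate 2 and 44 in replicate 1), 96 ERCC spike-ins and phiX were left out of library sizes. Ratios used edgeR 4.0.16 TMM scaling and a prior count of 0.5, after a check on simulated data. Folds and their intervals were computed without the prior count. DESeq2 1.42.0 size factors, ERCC scaling, log2(TPM + pseudocount) with pseudocounts of 1 and 0.1, other thresholds and leaving out each library were alternatives. Symbols and mm10 positions came from GENCODE M21, promoters from RefSeq (GRCm38.p6), and mm9 introns from the deposited Ensembl exon models. Levels are TPM, per length. Intervals are exact at 95% and cover counting error only, since reads carry no molecular identifiers. Named genes are the 9 genes, 15 partners, the highest, the lowest and the 2-fold genes of 8 pathway and 8 marker lists, and the nearest in ratio. The set of 9 genes and the lists were chosen with earlier results of these data known, although the rule that finds their rows uses symbols only. A few of these are left out of the text.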

Additional observations from a re-analysis of the deposited data

Results flagged for a closer look

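Spliced reads outside the Ensembl 65 models were found within 4 of the 9 genes, at 10 junctions with more than 3 reads each, the limit that a count of 0 allows. Whether the M4 models hold them was not tested. Slc6a4 had 16 reads over an 85-base gap that begins at the end of its first exon, chr11:76812178-76812262 (mm9), all 16 in the first mm9 value. In Ddc, 24 reads joined exon 2 to a site across a 353-base gap, at chr11:11780654-11781006, with 7 across a 1601-base gap and 5 across an 11178-base gap that ends between the downstream and upstream first exons. Other Ddc junctions had 14, 11 and 4 reads. Th had 5 reads from its second exon across a 3131-base gap that ends beyond the first exon of Th-201, and 4 reads at an internal site. Tph2 had 6 reads over a 12940-base gap. For comparison, the annotated introns of the main transcripts had 6235 reads in all.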

How the results depend on the processing

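The calls on Chat, Dbh and Phox2a kept their direction and 2-fold size under TMM, DESeq2 size factors, ERCC scaling, a prior count of 2 and log2(TPM + 0.1). On log2(TPM + 1), which understates low genes, Chat (0.89), Phox2a (0.72) and Tph2 (-0.37) dropped under 2-fold. ERCC scaling moved the median log2 ratio of all genes to 0.84 and that of the 9 genes to 1.22, against 0.37 under TMM. Under it Tph2 stood at -0.69, Slc6a4 at 1.22, and Th, Ddc and Slc6a3 lay above 0, at 0.6, 0.29 and 0.39. The number of genes at least 2-fold apart was 4 under the other scalings and count minimums and 2 at 3-fold. The number at the TPM threshold in both libraries was 5 at 0.5 TPM and ranged from 2 to 5 with 1 library left out. The median level of the 9 genes, 0.985 TPM, ranged from 0.54 to 1.29 with 1 library left out. As mean mm9 RPKM, a unit on another scale, it was 0.119. The Ddc share on the downstream first exon ranged from 77.5% to 92.6%. An added setting, chosen after seeing the data, asked for more than 3 reads an intron and left 80 of 89 introns. Causes were not tested. Depth limits Fev, Slc6a3, Tph1 and Pnmt, all under 100 counts, and Chat in replicate 1. No paired analysis was possible because there is 1 group.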

Other observations

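Somatic motor neurons also use Chat. Their list of 10 genes, all with 100 counts, held 3 that were higher in replicate 2 and 0 that were lower. The shares over all genes with 100 counts were 6.35% and 5.05%. The motor neuron factor Mnx1, the lowest of the list, had 171 counts in replicate 2 against 60 in replicate 1, a 2.91-fold difference (2.16 to 3.98). Lhx3, a LIM-homeodomain factor of motor neurons and V2a interneurons, was 3.64-fold higher in replicate 2 (3.04 to 4.38). Aldh1a2, which makes retinoic acid in some motor neurons and in somites and other mesoderm, was 6.86-fold higher (6.36 to 7.42). Foxp1 was the highest of the list, at 60.05 TPM in replicate 2 and 45.55 TPM in replicate 1. These ratios lay below those of Chat and Slc18a3.

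Markers of other tissues that use the same enzymes were compared as well, and their sums rested on few genes. The liver, gut and pancreas list summed to 339 TPM in replicate 2 and 813 TPM in replicate 1. The fetal liver genes Afp, Alb and Apoa1 were at least 2-fold lower in replicate 2, and Ins2 was at 0 in both. Afp and Alb held most of these sums, at 169.31 and 109.63 TPM in replicate 2 and 305.96 and 353.03 TPM in replicate 1. Of the 8 genes, 5 reached 1 TPM in both libraries. The sums therefore do not show gut or pancreas cells. The mast cell and platelet list, in which Tph1 stands, summed to 90.8 TPM in replicate 2 and 174 TPM in replicate 1. Its highest gene, the platelet factor Pf4, was lower in replicate 2. The hindbrain list summed to 19.6 TPM in replicate 2 and 5.38 TPM in replicate 1, with the counts of Hoxa2, Hoxb1 and Egr2 higher in replicate 2. In TPM, Egr2 lay closer, at 0.41 in replicate 2 and 0.39 in replicate 1.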
